A study of Mus musculus with 3 samples.

Results

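The 10 genes of mitochondrial fatty acid oxidation, Cpt1a, Cpt1b, Cpt2, Acsl1, Acadm, Acadl, Acadvl, Hadha, Hadhb and Pdk4, were followed through the open chromatin of mouse heart nuclei. They were chosen by name for their roles in the pathway, and not by their values, and are 10 of the 21728 protein-coding genes annotated on the autosomes and the X chromosome. The measure was the number of unique transposase fragments (pieces of DNA cut out of accessible chromatin) over the gene body plus 2 kb upstream, and over the 1 kb on either side of each transcription start site. Accessibility is not transcription, and the RNA arm of the same nuclei was not analysed here.

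Hearts came from mice with the genotype WT. The sunitinib plus Yoda1 group is titled with Yoda1 alone and had received sunitinib, an anti-cancer drug that blocks receptor tyrosine kinases, as well as Yoda1, a small molecule that opens the mechanically gated ion channel PIEZO1. The sunitinib group had been given sunitinib alone, and the vehicle group is titled as control. All titles carry 3 months, and whether this is an age or a treatment time is not stated, nor how many hearts went into a library. Each group had 1 library, so the spread between animals is unknown, no p-value is given, and every 95% interval covers counting error only.

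The sunitinib plus Yoda1 library stood apart. It held 583792 unique fragments from 209296546 read pairs, while the sunitinib library held 23653823 from 210143978 and the vehicle library 18704581 from 148947808. Called nuclei numbered 12 under sunitinib plus Yoda1, 3861 under sunitinib and 2690 under vehicle. The sunitinib and vehicle nuclei shared 22 barcodes, and neither shared one with sunitinib plus Yoda1. In the sunitinib plus Yoda1 library 42.1% of fragments had the start and end of a fragment of another barcode, against 0.213% and 0.196% of an equal number drawn from the sunitinib and vehicle libraries. Among the 258020 fragments with 100 or more read pairs the share was 0.288%. These fragments were used for the values of that library as a whole, other choices being given as alternatives. Cell classes were therefore compared between sunitinib and vehicle, and sunitinib plus Yoda1 only as a whole library.

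Fatty acids are the main fuel of the adult heart. Acyl-CoA synthetases such as ACSL1 activate them, the carnitine palmitoyltransferases move them into mitochondria (CPT1A and CPT1B on the outer membrane, CPT2 on the inner one), and a chain of enzymes then shortens them in repeated rounds. The first step of each round is taken by acyl-CoA dehydrogenases with preferences for chain length (ACADVL, ACADL, ACADM), and for long chains the later steps are taken by the trifunctional protein, whose subunits are HADHA and HADHB. PDK4 phosphorylates and so inactivates pyruvate dehydrogenase, which spares glucose while fat is burned. Many of these genes are known targets of the nuclear receptor PPARA and its coactivator PPARGC1A.

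Promoter sequences (250 bases before to 50 after a start site, from RefSeq on GRCm38.p6, gene strand) were found for 9 of the 10 genes, with 2 promoters for Acsl1, and those that the accounts of Acsl1, Pdk4, Cpt1a, the dehydrogenases and the trifunctional genes refer to are printed. They lie at chr8:46470787-46471086 and chr8:46490716-46491015 (Acsl1, plus strand), chr6:5496229-5496528 (Pdk4, minus strand), chr19:3323051-3323350 (Cpt1a, plus strand), chr3:153944594-153944893 (Acadm, minus strand), chr11:70015379-70015678 (Acadvl, minus strand) and chr5:30155003-30155302 (Hadhb, plus strand). Capitals mark the nuclear receptor half-site AGGTCA or its reverse complement.
Acsl1, first start site: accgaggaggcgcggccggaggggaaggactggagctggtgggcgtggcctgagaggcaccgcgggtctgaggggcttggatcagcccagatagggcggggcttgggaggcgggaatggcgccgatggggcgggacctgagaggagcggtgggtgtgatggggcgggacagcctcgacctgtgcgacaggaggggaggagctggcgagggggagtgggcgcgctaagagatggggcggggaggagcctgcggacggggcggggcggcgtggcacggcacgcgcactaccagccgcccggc
Acsl1, second start site: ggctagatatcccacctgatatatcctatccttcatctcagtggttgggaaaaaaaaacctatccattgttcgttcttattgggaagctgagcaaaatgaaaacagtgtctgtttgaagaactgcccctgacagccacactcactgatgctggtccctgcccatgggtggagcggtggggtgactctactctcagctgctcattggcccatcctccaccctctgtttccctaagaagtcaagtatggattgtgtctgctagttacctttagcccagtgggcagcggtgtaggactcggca
Pdk4: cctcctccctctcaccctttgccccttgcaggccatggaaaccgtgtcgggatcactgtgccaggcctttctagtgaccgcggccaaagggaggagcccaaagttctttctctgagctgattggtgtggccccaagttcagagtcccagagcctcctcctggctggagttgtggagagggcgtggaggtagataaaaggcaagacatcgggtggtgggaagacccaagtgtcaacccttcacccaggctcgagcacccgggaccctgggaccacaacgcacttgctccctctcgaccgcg
Cpt1a: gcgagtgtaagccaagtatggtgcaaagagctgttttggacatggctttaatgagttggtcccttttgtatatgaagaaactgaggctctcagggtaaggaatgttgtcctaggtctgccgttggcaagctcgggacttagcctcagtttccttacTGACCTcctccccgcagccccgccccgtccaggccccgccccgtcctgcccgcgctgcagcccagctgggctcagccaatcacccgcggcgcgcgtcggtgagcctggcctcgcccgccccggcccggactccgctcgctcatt
Acadm: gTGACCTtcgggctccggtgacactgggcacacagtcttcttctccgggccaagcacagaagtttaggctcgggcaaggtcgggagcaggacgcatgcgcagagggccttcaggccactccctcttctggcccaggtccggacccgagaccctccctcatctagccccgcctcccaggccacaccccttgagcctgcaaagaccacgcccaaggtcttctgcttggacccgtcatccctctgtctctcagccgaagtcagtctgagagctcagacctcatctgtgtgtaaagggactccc
Acadvl: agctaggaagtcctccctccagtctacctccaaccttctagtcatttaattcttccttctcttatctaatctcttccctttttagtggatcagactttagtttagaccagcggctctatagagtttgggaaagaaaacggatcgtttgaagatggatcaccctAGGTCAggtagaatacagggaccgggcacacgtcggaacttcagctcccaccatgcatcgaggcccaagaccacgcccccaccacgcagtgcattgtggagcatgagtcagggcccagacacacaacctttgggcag
Hadhb: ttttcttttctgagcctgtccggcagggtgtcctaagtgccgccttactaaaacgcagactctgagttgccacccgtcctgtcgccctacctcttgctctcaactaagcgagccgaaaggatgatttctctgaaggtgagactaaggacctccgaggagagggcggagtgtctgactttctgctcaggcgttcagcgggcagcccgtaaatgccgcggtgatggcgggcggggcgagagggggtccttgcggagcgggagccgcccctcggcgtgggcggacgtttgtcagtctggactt

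The half-site AGGTCA was present on either strand in 3 of the 10 promoters of these genes (Cpt1a, Acadm and Acadvl) and in 16.3% of all 32851 promoters. Neither the direct repeat of this half-site spaced by 1 base, in 0.0396% of all promoters, nor TCAAGGTCA, the site of estrogen-related receptors that contains the half-site, in 0.423%, was among these letters. The GC box GGGCGG was in 6 of the 10 promoters against 35.7% of all, the CCAAT box in 3 against 37.4%, and the NRF1 motif in 0 against 4.60%. The printed Acsl1 pair differed in composition: the first promoter was 74% G and C with 30 CpG dinucleotides and many GC boxes, and the second was 50% G and C with 4 CpG dinucleotides and no GC box, beside a median of 52.7% for all promoters. A match is a description of these letters and not evidence of a bound factor.

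In which heart cells the 10 genes were accessible was the first question. Called nuclei were clustered without the genome tiles over these genes, so that the genes themselves did not form the classes. Cardiomyocyte-like nuclei numbered 362 under sunitinib and 244 under vehicle, with all 10 cardiomyocyte markers at least 2-fold above the other nuclei and none of the 10 oxidation genes among the leading genes of any cluster. The other named classes were vascular endothelial-like (1096 and 1038 nuclei under sunitinib and vehicle), fibroblast-like (284 and 361), T lymphocyte-like (1329 and 232), B lymphocyte-like (132 and 97), myeloid-like (157 and 183), mural-like (142 and 145), endocardial-like (73 and 169) and epicardial or mesothelial-like (26 and 47). One cluster of 260 and 174 nuclei with low enrichment at start sites stayed unnamed. Levels below are fragments per kb of window per 1000000 fragments of the same nuclei, and comparisons between classes are log2 ratios within a library.

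Taken over the union of the gene windows, the 10 genes were most accessible in cardiomyocyte-like nuclei in both libraries. The level was 2.12 (interval 1.96 to 2.29) under sunitinib and 2.42 (2.22 to 2.63) under vehicle. The other classes lay between 1.15 and 1.63 under sunitinib and between 1.15 and 1.47 under vehicle. The log2 ratio of cardiomyocyte-like nuclei over the other 8 named classes was 0.67 (0.55 to 0.79) under sunitinib and 0.93 (0.79 to 1.06) under vehicle. Within 1 kb of start sites that ratio was -0.03 (-0.24 to 0.17) and 0.24 (0.00 to 0.46), so the excess lay mostly outside the start site windows. Cardiomyocyte-like nuclei also had the lowest median enrichment at start sites of the named classes, 22.6 under sunitinib and 23.8 under vehicle. Vascular endothelial-like nuclei were at 32.5 and 30.9. Ratios between classes were not set beside those of all genes. Whether this split between windows is particular to the 10 genes was not tested.

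The 10 genes did not share 1 pattern. Cpt1b and Pdk4 were far higher in cardiomyocyte-like nuclei, and Acsl1, Hadha and Hadhb were higher with intervals above 0 in both libraries. Acadm and Acadl had intervals above 0 under vehicle and not under sunitinib. The intervals of Acadvl and Cpt2 included 0 in both libraries, and Cpt1a was not higher.

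**Figure D1:**
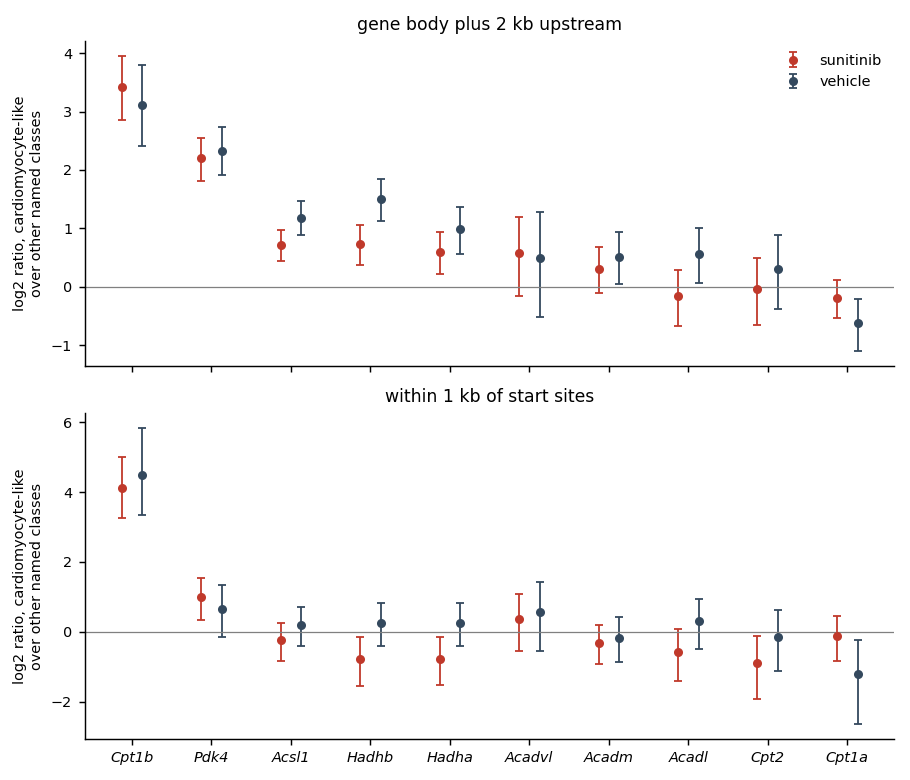
Log2 ratio of cardiomyocyte-like nuclei over the other named classes for each gene (y axis) under sunitinib and vehicle, over the gene body plus 2 kb (top) and within 1 kb of start sites (bottom); bars are 95% counting intervals. Cpt1b and Pdk4 stand above the other genes in the top panel, and under sunitinib only they have intervals wholly above 0 in both windows, while Hadha and Hadhb lie above 0 over the body and below 0 at the start site.

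Cpt1b, the muscle form of carnitine palmitoyltransferase 1, had the steepest difference between classes. In cardiomyocyte-like nuclei it held 58 fragments under sunitinib and 35 under vehicle, while the other 8 classes together held 59 and 40. Scaled to fragments per 1000000, these were 59.0 against 5.53 under sunitinib and 49.6 against 5.77 under vehicle, log2 ratios of 3.41 (2.86 to 3.96) and 3.11 (2.41 to 3.80). Its start site showed the same order, at 4.10 (3.27 to 5.00) and 4.47 (3.33 to 5.83), and was the highest of the 10 genes in both libraries. The 300 bp window with most fragment ends in cardiomyocyte-like nuclei, chr15:89425805-89426104 in mm10, spans this start site and held 18 and 10 cardiomyocyte-like fragments against 4 and 3 in all other classes. The window of Cpt1b lies wholly within the annotated spans of Gm44502 and Chkb, so its fragments cannot be assigned to Cpt1b alone.

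Cpt1a, the form of the same enzyme known from liver and many other cells, ran the other way. Its level in cardiomyocyte-like nuclei was 1.35 (1.08 to 1.67) under sunitinib and 0.975 (0.711 to 1.30) under vehicle, rank 8 and rank 9 of the 9 classes. Myeloid-like nuclei had the highest level in both libraries, 2.76 from 89 fragments and 2.09 from 71 fragments. The ratio of cardiomyocyte-like nuclei over the other classes was -0.20 (-0.53 to 0.11) under sunitinib and -0.62 (-1.11 to -0.20) under vehicle. The 2 CPT1 genes thus had opposite orders between cardiomyocyte-like and other nuclei under vehicle, while under sunitinib the interval for Cpt1a includes 0. Cpt2, the inner membrane partner, lay in the middle with ratios of -0.03 (-0.66 to 0.49) and 0.30 (-0.39 to 0.88).

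Pdk4 had the highest level per kb of the 10 genes in cardiomyocyte-like nuclei, 6.05 (4.86 to 7.44) under sunitinib and 7.20 (5.67 to 9.01) under vehicle. Fibroblast-like nuclei came next at 2.11 and 2.63, and lymphoid nuclei were lowest. Cardiomyocyte-like nuclei stood above the other classes by 2.20 (1.82 to 2.56) under sunitinib and 2.33 (1.91 to 2.73) under vehicle on the log2 scale. At its start site the ratios were smaller, 0.99 (0.35 to 1.55) and 0.66 (-0.16 to 1.33). Fragments in cardiomyocyte-like nuclei spread over the whole of this short gene, whereas those of endothelial-like nuclei stayed near the promoter printed above: 79.0% and 83.9% of endothelial-like fragments lay within 1 kb of the start site, against 32.6% and 25% of cardiomyocyte-like ones. A window 12.1 kb into the gene, chr6:5484051-5484350, held 8 and 5 cardiomyocyte-like fragments against 1 and 0 in all other classes. It was picked for its fragments in cardiomyocyte-like nuclei, so this is a description.

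Acsl1, which encodes the main long-chain acyl-CoA synthetase of heart muscle, had 134 cardiomyocyte-like fragments under sunitinib and 122 under vehicle. Its ratio over the other classes was 0.72 (0.44 to 0.98) under sunitinib and 1.18 (0.88 to 1.47) under vehicle. The 2 promoters differed in where they were open. The window at the first, chr8:46470837-46471136, held 12 and 11 cardiomyocyte-like fragments against 207 and 132 in the other classes, ratios of -0.62 (-1.65 to 0.16) and -0.23 (-1.33 to 0.60). The window at the second start site, chr8:46490837-46491136 and 19.95 kb downstream, held 4 and 10 against 2 and 4, ratios of 4.29 (1.64 to 7.90) and 4.52 (2.82 to 6.75). The second, with few CpG dinucleotides, was thus almost closed outside cardiomyocyte-like nuclei while the first was open in the other classes. These windows were picked for their fragments in cardiomyocyte-like nuclei, so their ratios are a description.

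**Figure D2:**
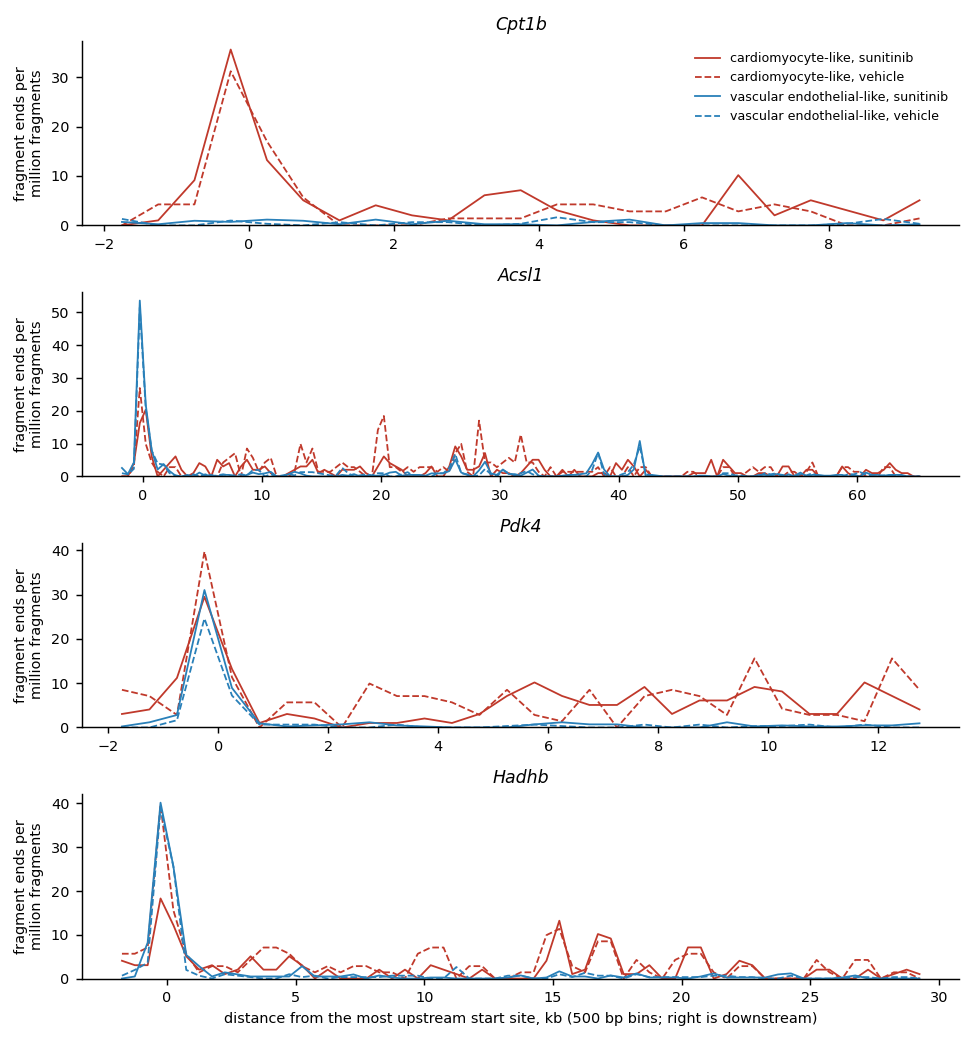
Fragment ends per 1000000 fragments (y axis) in 500 bp bins by distance from the most upstream start site in kb (x axis) for Cpt1b, Acsl1, Pdk4 and Hadhb, in cardiomyocyte-like (red) and vascular endothelial-like (blue) nuclei under sunitinib (solid) and vehicle (dashed). Cardiomyocyte-like nuclei have the only peak at Cpt1b, a peak 19.95 kb into Acsl1 at its second start site, ends along all of Pdk4, and ends well inside Hadhb where endothelial-like nuclei have few.

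Hadha and Hadhb, the subunits of the trifunctional protein, start head to head and share most of their start site windows, so their start site values are not independent of each other. Their gene windows overlap there as well, so the values over those windows are not fully independent either. In cardiomyocyte-like nuclei Hadhb held 80 fragments under sunitinib and 87 under vehicle, and Hadha 74 and 65, the highest level of all classes for both genes in both libraries. The ratio over other classes was 0.73 (0.37 to 1.07) under sunitinib and 1.498 (1.13 to 1.84) under vehicle for Hadhb. For Hadha it was 0.59 (0.21 to 0.93) under sunitinib and 0.98 (0.57 to 1.36) under vehicle. At the shared start region, where the Hadhb promoter printed above lies, cardiomyocyte-like nuclei were lower than the other classes under sunitinib, -0.77 (-1.53 to -0.16), and not under vehicle, 0.27 (-0.40 to 0.83). Inside the genes, a window 2.91 kb into Hadha (chr5:30152104-30152403) held 7 and 8 cardiomyocyte-like fragments against 4 and 4, and one 16.95 kb into Hadhb (chr5:30172048-30172347) held 7 and 4 against 6 and 4. Another, 29.3 kb into Hadha, held 7 and 2 against 25 and 8. These windows too were picked for their fragments in cardiomyocyte-like nuclei, which favours an excess there, so they are a description.

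The 3 dehydrogenases had ratios closer to 0 than Hadha and Hadhb in each library. Acadm, the medium-chain enzyme, had ratios of 0.31 (-0.10 to 0.67) under sunitinib and 0.52 (0.05 to 0.93) under vehicle. Most of its fragments in the other classes lay at the promoter, while an intronic window 8.53 kb into the gene (chr3:153935957-153936256) held 10 and 9 cardiomyocyte-like fragments against 6 and 4 elsewhere. That window was likewise picked for its cardiomyocyte-like fragments. Acadl, the long-chain enzyme, stood at -0.16 (-0.67 to 0.28) under sunitinib and 0.56 (0.06 to 1.01) under vehicle. Acadvl, the very-long-chain enzyme, was the thinnest with 22 and 13 cardiomyocyte-like fragments and ratios of 0.58 (-0.17 to 1.20) and 0.49 (-0.52 to 1.29), and 35.8% of its window lies in Dvl2 and Dlg4.

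Of 5060 genes with at least 1000 fragments in called nuclei, those whose log2 accessibility over the 9 classes in both libraries was most like that of the 10 genes together, these 10 left out, were Myom1 (Pearson's r = 0.90 over 18 points), Ryr2 (0.89), Ttn (0.87) and Mib1 (0.85). Myom1, Ryr2 and Ttn were among the markers that named the cardiomyocyte-like class. The 18 points share 2 libraries and their depths, so r is a description.

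Whether sunitinib treatment went with a difference in these genes was asked first in cardiomyocyte-like nuclei. Of the 9 genes with at least 50 fragments over both libraries, 7 had a log2 ratio of sunitinib over vehicle below 0, beside 58.6% of all 7890 genes measured there. Their median was -0.27 and that of all genes -0.07. One gene, Hadhb, was at least 1.5-fold lower, beside 6.64% of all genes, and it was no longer past 1.5-fold under 6 of 9 alternatives. Of the 9 genes 0 were at least 1.5-fold higher, beside 4.16% of all. Over the 10 genes together 653 fragments under sunitinib and 533 under vehicle gave -0.19 (-0.35 to -0.02), and 36.4% of all genes had a lower ratio. Set against the summed cardiomyocyte markers, which were themselves at -0.10 (-0.16 to -0.03) from 4934 and 3782 fragments, it was -0.09 (-0.27 to 0.09).

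Hadhb had the lowest ratio of the 10. Its level was 2.59 (2.06 to 3.23) under sunitinib and 3.93 (3.15 to 4.85) under vehicle, a log2 ratio of -0.60 (-1.06 to -0.15), and 5.99% of genes lay lower. Against the summed cardiomyocyte markers it was -0.50 (-0.95 to -0.06). The interval included 0 over bases in no other gene, at -0.48 (-0.97 to 0.01), in nuclei with at least 3000 fragments, at -0.42 (-1.03 to 0.18), and without the 5% deepest nuclei, at -0.43 (-0.95 to 0.09). Its partner Hadha was at 1.94 (1.52 to 2.43) under sunitinib and 2.37 (1.83 to 3.02) under vehicle, a ratio of -0.29 (-0.79 to 0.21). Their shared start region held 20 fragments under sunitinib and 26 under vehicle, -0.85 (-1.78 to 0.04). With only fragments shorter than a nucleosome, Hadhb was at -1.10 (-1.94 to -0.31) from 23 and 35 fragments and Hadha at -1.29 (-2.30 to -0.38) from 16 and 28. As counted over all cardiomyocyte-like nuclei, the intervals exclude 0 for the short fragments of both genes and for the body of Hadhb, and include it for the body of Hadha and the shared start region. The windows of both genes overlap around their start sites, so a short fragment there counts for both and their values are not independent.

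For the entry steps the values went both ways. Cpt1a held 87 fragments under sunitinib and 45 under vehicle, 0.46 (-0.06 to 1.02), the highest ratio of the 10. Its start site window, which includes the printed promoter, held 24 and 7, 1.23 (0.04 to 2.76), or 1.20 (-0.04 to 2.44) against the cardiomyocyte markers, and 15 against 2 of these lay in the 300 bp at the start site (chr19:3323234-3323533). Cpt1b held 58 and 35 fragments, 0.24 (-0.38 to 0.90), and Cpt2 held 29 and 25, -0.27 (-1.09 to 0.57). Acsl1 held 134 and 122, -0.34 (-0.71 to 0.02), and its second start site 4 and 10, -1.70 (-3.93 to -0.01). Apart from the 2 start site windows, which rest on 7 and 4 fragments on their thinner side, every interval here includes 0. The 300 bp windows of Cpt1a and Acsl1 named here are from the 3 picked per gene for their cardiomyocyte-like fragments. No other window picked this way had an interval of sunitinib over vehicle that excludes 0.

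Among the dehydrogenases, Acadl held 42 fragments under sunitinib and 44 under vehicle, -0.55 (-1.19 to 0.10), and Acadm 63 and 51, -0.18 (-0.73 to 0.39). Acadvl, with 22 and 13 fragments, 0.26 (-0.77 to 1.39), had too few to be counted as measured. Pdk4, the brake on glucose oxidation, held 89 and 76, -0.25 (-0.71 to 0.21). At this depth no difference between the libraries was detectable for these 4 genes.

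**Figure D3:**
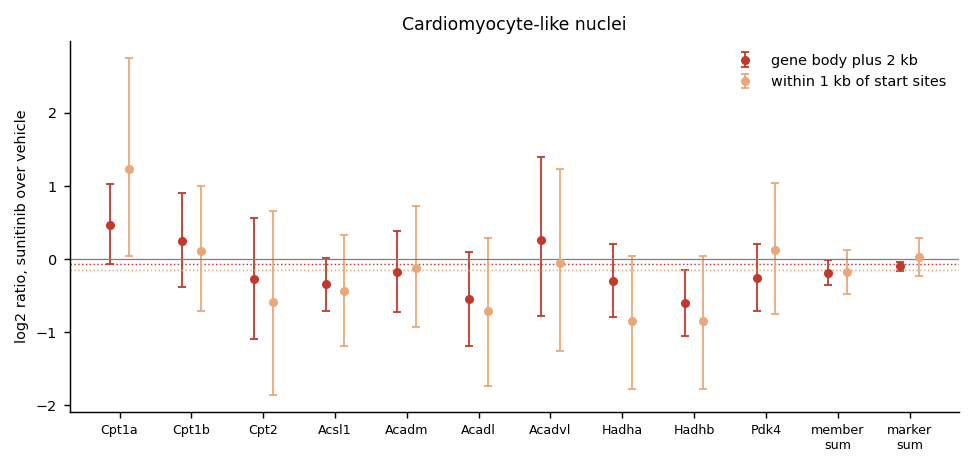
Log2 ratio of sunitinib over vehicle in cardiomyocyte-like nuclei (y axis) for each gene, the 10 genes together and the summed cardiomyocyte markers, over the gene body plus 2 kb and within 1 kb of start sites; bars are 95% counting intervals and dotted lines the medians of all measured genes. Hadhb is the only single gene whose body interval lies wholly below 0, and the Cpt1a start site is the only one wholly above 0.

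Markers of other classes were read in the same nuclei. T lymphocyte markers held 223 and 135 fragments in cardiomyocyte-like nuclei, 0.24 (-0.07 to 0.56), with 6 of 9 higher under sunitinib and none at 0. Vascular endothelial markers were at -0.01 (-0.25 to 0.23), fibroblast markers at 0.10 (-0.24 to 0.46), and adipocyte markers, another fat-handling cell type, at 0.01 (-0.57 to 0.61) from 62 and 44 fragments. The median enrichment at start sites was 22.6 under sunitinib and 23.8 under vehicle. Of the other lists, endocardial markers were lower at -0.25 (-0.45 to -0.04) from 434 and 369 fragments, with 1 of 6 higher, and myeloid markers at -0.24 (-0.45 to -0.04) from 428 and 363, with 3 of 8 higher. These shifts have the sign of the 10 genes together and a similar size, and they are the lists of other classes whose intervals exclude 0. The part of these markers in the ratios of the 10 genes was not tested.

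Other lists of the pathway were read in cardiomyocyte-like nuclei in the same way, beside 58.6% of all genes below 0. Of the other beta-oxidation enzymes 3 of 14 measured were lower under sunitinib (median 0.15), among them Hadh, which takes the third step for shorter chains, at -0.17 (-0.61 to 0.28), and Etfdh, which passes electrons to ubiquinone, at -0.41 (-0.94 to 0.13), while Etfa was at 0.04 (-0.49 to 0.60). Among acyl-CoA synthetases and thioesterases 3 of 6 were lower (median 0.02) and among ketone body genes 0 of 2, with Oxct1, the enzyme that lets the heart burn ketones, at 0.39 (0.00 to 0.79) from 157 and 86 fragments. Of fatty acid uptake and storage genes 4 of 9 were lower (median 0.28), with the fatty acid transporter Cd36 at -0.38 (-0.72 to -0.05), or -0.29 (-0.62 to 0.04) against the cardiomyocyte markers, and lipoprotein lipase, Lpl, at 0.28 (-0.12 to 0.70). Peroxisomal oxidation had 3 of 6 lower (median -0.08).

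Genes that control the pathway were read in the same way. Of the genes for malonyl-CoA and pyruvate dehydrogenase control 6 of 9 measured were lower, beside the 58.6% of all genes (median -0.29). Acacb, whose product makes the malonyl-CoA that inhibits CPT1, was at -0.35 (-0.64 to -0.07) from 214 and 196 fragments. Against the cardiomyocyte markers it was at -0.26 (-0.54 to 0.03). Acaca went the other way at 0.28 (-0.14 to 0.71) from 127 and 75 fragments, and Pdk2 was at -0.29 (-0.87 to 0.31). Of the transcriptional regulators 12 of 15 were lower (median -0.12). Ppargc1a, the coactivator named above, held 209 fragments under sunitinib and 287 under vehicle, -0.94 (-1.20 to -0.67), and -0.84 (-1.10 to -0.58) against the cardiomyocyte markers. Over the same windows its relative Ppargc1b, at -0.25 (-0.52 to 0.01), and the nuclear receptor Esrrg, at -0.12 (-0.33 to 0.11), were closer to 0. Within 1 kb of start sites Ppargc1a was at -0.64, Ppargc1b at -0.91 and Esrrg at -1.09. Fragment counts and intervals are not given for these start site values, so no order between the genes is read from them. Whether the gap between these genes depends on the window was not tested.

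Outside cardiomyocyte-like nuclei the 10 genes were not lower as a rule. In vascular endothelial-like nuclei all 9 measured genes had a ratio above 0, beside 43.4% of 14986 genes below it, with a median of 0.10 against 0.03 for all genes, and 0 were past 1.5-fold, beside 1.15% higher and 1.62% lower. The 10 genes together held 1854 and 1228 fragments, 0.11 (0.01 to 0.22). Pdk4 had the highest value, 119 fragments under sunitinib and 62 under vehicle, 0.45 (0.01 to 0.93), and the other measured genes lay between 0.05 and 0.22 with intervals that include 0. T lymphocyte markers were higher in these nuclei too, at 0.41 (0.24 to 0.58) from 799 and 431 fragments with 9 of 9 higher, and their part was not tested.

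Fibroblast-like nuclei had 485 and 383 fragments over the 10 genes, 0.13 (-0.07 to 0.32), with 2 of 8 measured genes below 0 beside 46.7% of all. Their Cpt1a start site held 42 fragments under sunitinib and 17 under vehicle, 1.07 (0.25 to 1.997), while its whole window was at 0.10 (-0.26 to 0.46). In the same nuclei T lymphocyte markers were at 0.90 (0.64 to 1.18) from 365 and 168 fragments, with 9 of 9 higher, Schwann markers at 0.51 (0.19 to 0.84), epicardial or mesothelial markers at -0.64 (-1.02 to -0.26) and adipocyte markers at -0.51 (-0.99 to -0.04), and their part was not tested. Myeloid-like nuclei stood at 0.34 (0.07 to 0.61) from 252 and 210 fragments, and the cardiomyocyte markers in the same nuclei at 0.36 (0.08 to 0.64) and T lymphocyte markers at 0.52 (0.10 to 0.96), with 5 of 9 higher. Mural-like nuclei were at -0.22 (-0.50 to 0.06), endocardial-like at 0.23 (-0.07 to 0.51), epicardial or mesothelial-like at -0.34 (-0.85 to 0.14), T lymphocyte-like at -0.03 (-0.24 to 0.19) and B lymphocyte-like nuclei near 0. In B lymphocyte-like nuclei the B lymphocyte markers were at -0.73 (-1.14 to -0.32) and the T lymphocyte markers at 0.81 (0.51 to 1.12). In endocardial-like nuclei lymphatic endothelial markers were at 0.58 (0.24 to 0.90) and vascular endothelial markers at 0.23 (0.06 to 0.39). The part of these markers was not tested. Over gene bodies in the named classes of this paragraph, whatever the number of fragments, 3 single genes had an interval that excludes 0. Hadhb in endocardial-like nuclei held 25 and 23 fragments, 1.21 (0.34 to 2.10). Acadl in mural-like nuclei held 20 and 35, -0.90 (-1.78 to -0.08), where T lymphocyte markers were at 0.54 (0.10 to 0.99). Acadvl in fibroblast-like nuclei held 4 and 12, -1.69 (-3.89 to -0.08). All rest on few fragments, and only Acadl in mural-like nuclei had enough to be counted as measured. They were picked from all 10 genes in each class of this paragraph. The share of all genes with such an interval was not computed, so these 3 are a description.

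**Figure D4:**
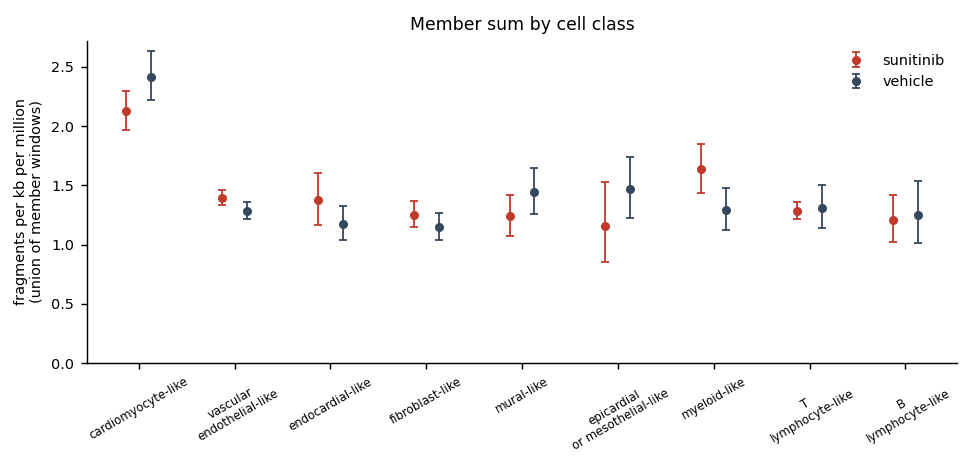
Fragments per kb per 1000000 fragments over the union of the windows of the 10 genes (y axis) by named cell class, under sunitinib (red) and vehicle (dark); bars are 95% counting intervals. Cardiomyocyte-like nuclei are highest in both libraries at 2.12 and 2.42, and lower under sunitinib, while most other classes lie between 1.15 and 1.63 with overlapping intervals.

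Over the whole libraries, where fewer cells of a type and less accessibility per cell cannot be told apart, the 10 genes held 8938 fragments under sunitinib and 6669 under vehicle, 0.08 (0.04 to 0.13), beside a median of 0.07 over all genes. Cpt1b, at -0.16 (-0.40 to 0.08), and Pdk4, at -0.14 (-0.33 to 0.04), were the 2 of 10 below 0, beside 40.7% of 19358 genes, and they are the 2 genes with the highest cardiomyocyte-like ratios above. T lymphocyte markers were at 0.90 (0.85 to 0.95) and cardiomyocyte markers at -0.06 (-0.09 to -0.03) in the same comparison. Among called nuclei the 10 genes were at 0.01 (-0.05 to 0.07).

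The comparison of sunitinib plus Yoda1 asks whether the addition of Yoda1 went with a difference from sunitinib alone. Over the 10 genes its library held 149 fragments backed by at least 100 read pairs, a level of 1.85 (1.56 to 2.17), against 1.21 (1.19 to 1.24) under sunitinib and 1.14 (1.11 to 1.17) under vehicle. The log2 ratio was 0.61 (0.37 to 0.84) over sunitinib and 0.70 (0.45 to 0.93) over vehicle. Both ratios use the same sunitinib plus Yoda1 fragments. The cardiomyocyte markers were higher still, 10 of 10, at 0.96 (0.82 to 1.10) over sunitinib from 423 and 19878 fragments, and T lymphocyte markers were lower, 9 of 9, at -1.40 (-1.86 to -1.001). Relative to the cardiomyocyte markers the ratio of the 10 genes turned to -0.35 (-0.62 to -0.08) over sunitinib and -0.20 (-0.48 to 0.07) over vehicle. Cell makeup and accessibility per cell cannot be told apart in this library.

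By gene, 5 of 10 were at least 1.5-fold higher over sunitinib, beside 16.6% of 18189 genes, and 1 of 10 was below 0, beside 54.2%. Over vehicle the counts were 5 of 10 beside 17.2%, and 1 of 10 beside 49.2%. Acsl1 held 38 fragments in the sunitinib plus Yoda1 library, against 1872 under sunitinib and 1355 under vehicle, ratios of 0.91 (0.39 to 1.36) and 1.04 (0.52 to 1.49). Acadm held 21, against 1025 and 751, 0.94 (0.21 to 1.53) and 1.05 (0.32 to 1.64). Cpt1a held 34, against 2090 and 1527, 0.60 (0.04 to 1.06) and 0.71 (0.15 to 1.18). These 3 genes had intervals above 0 in both comparisons. Relative to the cardiomyocyte markers Acsl1 was at -0.05 (-0.53 to 0.43), Acadm at -0.02 (-0.66 to 0.62) and Cpt1a at -0.37 (-0.87 to 0.14) over sunitinib, with intervals that include 0.

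The remaining 7 genes rested on 4 to 11 fragments each in the sunitinib plus Yoda1 library. Pdk4 with 10 and Acadvl with 6 were at 0.93 (-0.21 to 1.75) and 0.83 (-0.74 to 1.86) over sunitinib, Cpt1b with 4 at 0.41 (-1.64 to 1.61), Cpt2 with 8 at 0.38 (-0.92 to 1.29) and Acadl with 11 at 0.26 (-0.81 to 1.04). Hadhb with 11 was at 0.14 (-0.93 to 0.92), and Hadha with 8 was the gene below 0 at -0.35 (-1.65 to 0.55). The shared start region of Hadha and Hadhb held 1 fragment, against 567 under sunitinib and 367 under vehicle in the Hadha window, -2.05 (-7.94 to -0.15) and -1.76 (-7.65 to 0.15). By these intervals no difference was detectable for the 7 gene bodies at this depth.

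**Figure D5:**
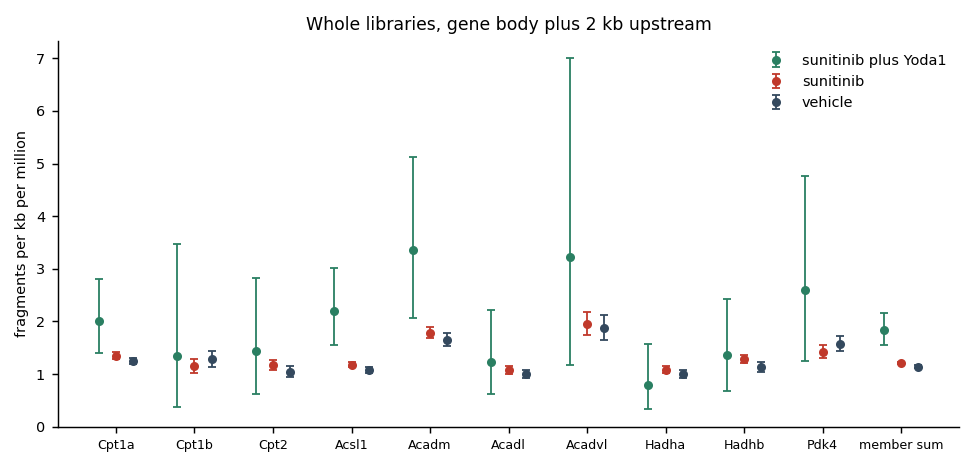
Fragments per kb per 1000000 fragments over each gene body plus 2 kb, and over the union of the windows (y axis), in the whole sunitinib plus Yoda1 (green; fragments with at least 100 read pairs), sunitinib (red) and vehicle (dark) libraries; bars are 95% counting intervals. The sunitinib plus Yoda1 points lie above both other libraries for every gene but Hadha. Its wide bars are clear of both other libraries for Acsl1 and Acadm, and overlap at least the sunitinib bar for the other single genes.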

How the data were processed

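Single-nucleus multiome libraries of snap-frozen mouse hearts gave chromatin fragments after transposition with Tn5, 1 library per group. The authors deposited, per the file headers, fragments made with cellranger-arc (2.0.2 for sunitinib plus Yoda1, 2.0.0 for sunitinib and vehicle) on mm10, so version and group are confounded. Each deposited line gives a unique fragment, its barcode and the count of read pairs that support it, without any normalization. The submitters' processing notes name Cell Ranger and Signac, and no deposited nucleus calls were used.

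A nucleus had at least 1000 fragments, an enrichment of at least 4 at start sites (ends closer than 50 bp relative to ends 1900 to 2000 bp away) and under 4 mononucleosomal fragments for each shorter one. Doublets were neither called nor taken out. All called nuclei entered 1 joint clustering (latent semantic indexing with 30 components of 60000 tiles, each 5 kb long and none over the 10 genes, then a Leiden partition of the graph of 20 neighbours at resolution 0.8). A class was named from at least 3 markers at least 2-fold above the other nuclei. Genes came from GENCODE M21 and promoters from RefSeq on GRCm38.p6.

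For each class and library, fragments overlapping a window were added up and scaled by the autosomal and X fragments of those nuclei. For log2 ratios 0.5 was added to each count, with conditional exact 95% intervals, while levels had exact Poisson intervals, and ratios relative to markers had Wald intervals. Measured genes had 50 or more fragments in the 2 libraries compared, and called genes were past 1.5-fold. The text names all 10 genes, of each other list up to 3 genes with most cardiomyocyte-like fragments, the 5 most similar genes (1 of which is not reported here), and the 3 non-overlapping windows of 300 bp per gene with most cardiomyocyte-like fragment ends. The genes, lists, markers and thresholds were chosen with earlier results of these data known. The sum over the 10 genes counts a fragment in the shared Hadha and Hadhb region once. Scripts used Python 3.11.15, numpy 2.4.6, scipy 1.17.1, scikit-learn 1.9.0 and leidenalg 0.10.2, and were tested on simulated data.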

Additional observations from a re-analysis of the deposited data

Results flagged for a closer look

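For the ratio of sunitinib over vehicle over the 10 genes, classes with an interval wholly above 0 were set against those wholly below 0. With pairs picked this way the interval of a difference excludes 0 by the choice, so the differences are a description. Relative to the cardiomyocyte markers the ratio in cardiomyocyte-like nuclei was -0.09 (-0.27 to 0.09). Vascular endothelial-like nuclei stood 0.30 (interval 0.11 to 0.50) above cardiomyocyte-like nuclei on the log2 scale, the classes being at 0.11 and -0.19. Myeloid-like nuclei stood 0.53 (0.22 to 0.84) above cardiomyocyte-like nuclei, at 0.34 and -0.19. These intervals cover counting error only, so the differences were not tested against variation between animals.

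Data outside the main comparisons were read as well. The 12 nuclei of the sunitinib plus Yoda1 library held 19 fragments over the 10 genes among 23703, against 5528 in the sunitinib nuclei. The log2 ratio was 0.94 (0.17 to 1.55). Unlike the whole-library values, these counts took all fragments of the nuclei, with no limit on read pairs. Of the 12 nuclei 4 were cardiomyocyte-like, against 362 of 3861 under sunitinib. The part of cell makeup, and of fragments with a start and end shared between barcodes, was not tested. Barcodes under 500 fragments, which were called nuclei in no library, had a ratio of sunitinib over vehicle of 0.078 over the gene windows and 0.27 within 1 kb of start sites. The all-gene medians were higher, at 0.10 and 0.40.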

How the results depend on the processing

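No paired analysis was possible because each group had 1 library, and no replicate could be left out. In cardiomyocyte-like nuclei the ratio of sunitinib over vehicle for the 10 genes stayed below 0 under the 9 alternatives run, between -0.32 with fragments shorter than a nucleosome and -0.09 relative to the cardiomyocyte markers. The interval included 0 in 5 of the 9: relative to those markers, within 1 kb of start sites, with at least 3000 fragments per nucleus, at Leiden resolution 1.5, and after dropping the deepest 5% of nuclei, where it was -0.11. Single genes in that class kept their sign under every alternative run except Cpt1b in 1 of 8, Acadvl in 2 of 9 and Pdk4 in 1 of 9, and Cpt1b had no value over bases in no other gene. Hadhb, the gene past 1.5-fold lower, ranged from -1.10 to -0.42 over its 9 alternatives. It fell short of 1.5-fold in 6 of them: bases in no other gene, at least 3000 fragments, without the 5% deepest nuclei, 1 fragment per start and end (-0.58), Leiden resolution 1.5 (-0.57) and relative to the markers.

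Over whole libraries the ratio of sunitinib over vehicle, 0.08 as reported, was 0.18 within 1 kb of start sites, 0.14 relative to the cardiomyocyte markers and 0.0089 in called nuclei. Relative to those markers sunitinib plus Yoda1 turned to -0.35 over sunitinib and -0.20 over vehicle. Not set against markers, and with all fragments of that library in place of those with at least 100 read pairs, the ratios were 0.43 and 0.52, and 0.39 and 0.48 when each start and end was also counted once. The cause of these shifts was not tested. Counting each start and end once, adding the low-enrichment cluster to cardiomyocyte-like nuclei (-0.27), and called nuclei in place of whole libraries were chosen after seeing the data. Depth limits most single genes: intervals in cardiomyocyte-like nuclei spanned several-fold.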
